A study of Homo sapiens with 6 samples.

Results

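The kinesin motor family was examined in SiHa PR cells with and without P4HA3 overexpression. Members were the protein-coding genes whose symbol is KIF followed by a number and at most 1 letter from A to C, or KIFC1 to KIFC3. CENPE, a kinesin with another name, was left out by this rule. The rule found 42 members among the 60664 Ensembl genes of the count table. They were sorted by textbook role into 14 mitotic motors, 15 cargo-transport motors and 13 other motors, with earlier results of these data known. SiHa, an established line of human squamous cervical carcinoma (CCa), is here in its parental form, SiHa PR, from which cells that spread to lymph nodes were derived. The control group held 3 RNA-seq libraries that the labels give only as SiHa PR. The overexpression group held 3 libraries of SiHa PR cells with P4HA3 added, and the libraries are named control 1 to 3 and P4HA3 1 to 3. The methods give a lentiviral pCDH vector as the carrier of P4HA3. Nothing in the sources used here says whether replicates were separate cultures or separate transductions, so the p-values measure only the spread between these samples, which may be technical. One label of every sample describes uterine smooth muscle, whereas its other labels and the study's text give SiHa cells.

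Kinesins are motor proteins that hydrolyse ATP to move along microtubules or to take microtubule ends apart. Cargo-transport kinesins carry vesicles, organelles and RNA, most of them towards microtubule plus ends, and bind their load through light chains and adaptors. Mitotic kinesins build the bipolar spindle, align chromosomes and organise the central spindle and the midbody during cytokinesis, and transcripts of many of them accumulate late in the cell cycle and are abundant in proliferating carcinoma cells.

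The libraries held 21773488 to 24589095 counts in control cells and 22160298 to 24939948 with overexpression. P4HA3 itself had 86, 62 and 93 counts in controls 1, 2 and 3 and 45042, 44775 and 49097 counts with overexpression, in the direction its labels give. Across the 15130 genes tested, 1416 were higher and 1731 lower at a Benjamini-Hochberg adjusted p under 0.05 (quasi-likelihood test of edgeR), and the median log2 fold change was 0.01. These totals depended on which single library was left out. Leaving out control 1 gave 229 higher and 552 lower, control 2 gave 163 and 371, and P4HA3 3 gave 275 and 629. Leaving out P4HA3 2 gave 884 and 1322, P4HA3 1 gave 2814 and 2716, and control 3 gave 1393 and 1792, close to the totals. Each of these fits also had fewer libraries, and the part of that in the changes was not tested. Of 8 epithelial markers, KRT7, KRT8, KRT17 and KRT18 were abundant in control cells (on average 942 to 5338 CPM, counts scaled by TMM-normalized library size). The others were much lower there, CDH1 at 16.5, EPCAM at 5.77 and KRT19 at 0.841 CPM on average. KRT5 had at most 4 counts in any library. The summed level of the 7 epithelial markers tested was 11470 to 13060 CPM in control and 10780 to 12280 CPM in P4HA3 libraries. Of these markers, 0 were called higher and 3 lower (CDH1, KRT17 and KRT18), with the same counts at an unadjusted p under 0.05 and by DESeq2 and limma-voom. With the GC content and length trend described below removed, 1 was called higher and 2 lower. KRT7 was then called higher (log2 fold change 0.317, adjusted p = 0.00235), and KRT17 was no longer called (-0.088, adjusted p = 0.154). Of 9 smooth muscle markers, the defining genes MYH11, DES and CNN1 had at most 9 counts in any library. The 3 tested (ACTA2, ACTG2 and TAGLN) summed to 15.7 to 17.8 CPM in control and 24.4 to 28.0 CPM in P4HA3 libraries. TAGLN (195 to 220 counts in control and 379 to 427 with overexpression) was the 1 gene called higher. ACTA2 had 161 to 204 counts in every library, and ACTG2 had 30 counts in control 3 and 40 and 44 in P4HA3 1 and 3, but at most 1 in the other libraries. Of the 6 leukocyte and endothelial markers only PECAM1 was tested, at 2.53 to 3.43 CPM in control and 1.33 to 1.46 CPM in P4HA3 libraries. PECAM1 had 62 to 73 counts in control and 30 to 37 with overexpression and was called lower (log2 fold change -1.03, adjusted p = 0.00494). The other 5 had at most 2 counts in any library. The part of these markers in the kinesin values was not tested.

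With P4HA3 overexpression, 27 of the 34 kinesins tested had a positive log2 fold change, and most of the called rises were in motors of the spindle and the midzone. Of the 42 members, these 34 had enough counts to be tested, of which 13 rose, 3 fell and 18 did not pass the test. Among all genes tested, 20.8% were called in either direction, 9.36% higher and 11.4% lower. Of these 15130 genes, 7665 had a positive log2 fold change. The mitotic class had 8 of 13 tested members called higher and 0 called lower. It also had 0 lower at an unadjusted p under 0.05 and by DESeq2 and limma-voom, and all 13 log2 fold changes were positive. The transport class had 4 of 13 called higher and 2 lower, and the other motors 1 of 8 higher and 1 lower. The median log2 fold change was 0.48 in mitotic motors, 0.13 in transport motors and 0.09 in other motors. These counts and medians describe lists chosen with earlier results of these data known. They are not a test between the lists or against the background. In bulk RNA, a larger share of cells in mitosis and more kinesin RNA per cell cannot be told apart. The 8 members left untested (KIF2B among mitotic motors, KIF1A and KIF5A among transport motors, and KIF6, KIF12, KIF19, KIF25 and KIF26B among other motors) had 0 to 14 counts in every library.

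**Figure D1:**
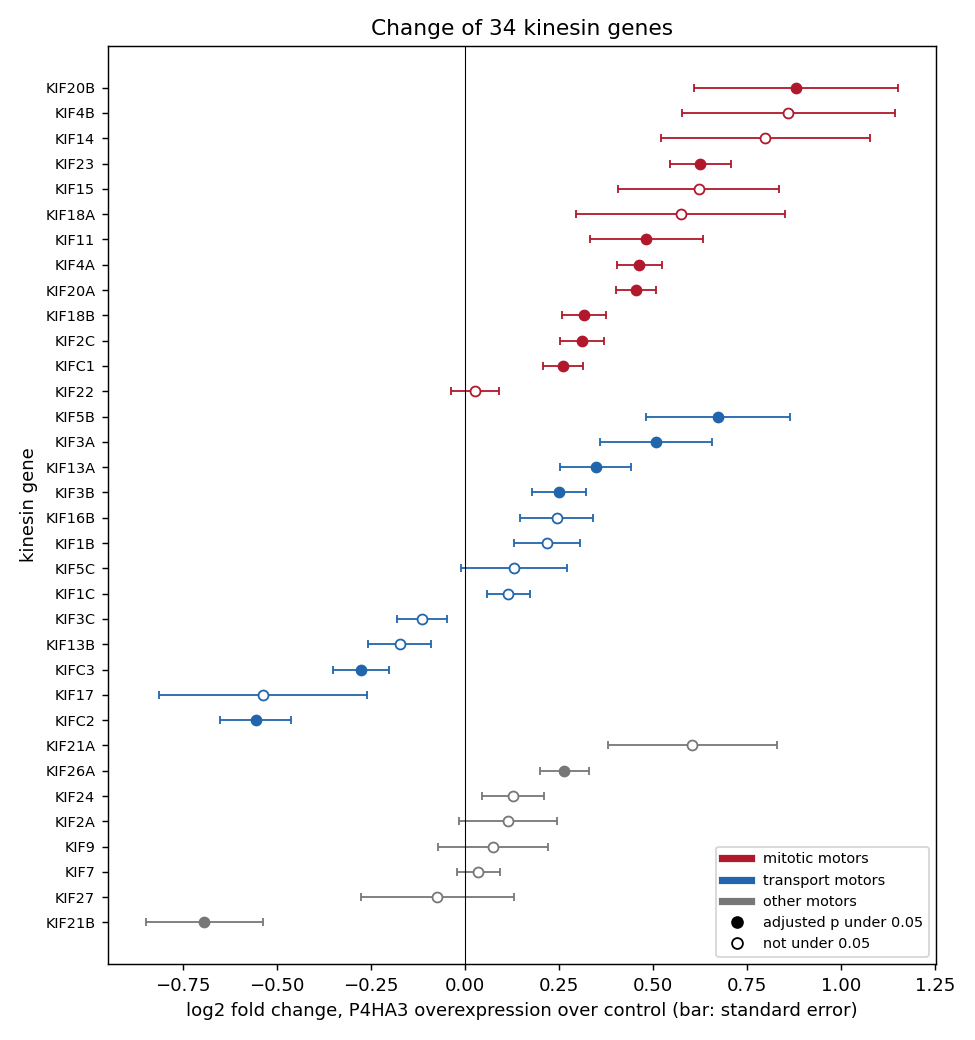
Log2 fold change of P4HA3 overexpression over control for the 34 kinesin genes tested, 1 row a gene grouped by class, with bars for the standard error and filled points for an adjusted p under 0.05. All 13 mitotic motors lie to the right of 0, while transport motors run from -0.56 to 0.67.

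The stretches of promoter below are shown for the 4 mitotic motors that were called in every alternative fit (KIF23, KIF4A, KIF20A and KIF18B), for KIF5B, the transport motor with the largest rise, and for KIF1C, an abundant transport motor that was not called. Each runs 5′ to 3′ on the gene's strand from 150 bases before to 20 bases after the start annotated by RefSeq on GRCh38.p14. They lie at chr15:69414199-69414368 on the plus strand (KIF23), chrX:70289954-70290123 on the plus strand (KIF4A), chr5:138178962-138179131 on the plus strand (KIF20A), chr17:44947754-44947923 on the minus strand (KIF18B), chr10:32056406-32056575 on the minus strand (KIF5B) and chr17:4997800-4997969 on the plus strand (KIF1C). Capitals mark the letters TTTGAA and CCAAT, read on either strand, so that a match on the other strand appears as TTCAAA or ATTGG.
KIF23: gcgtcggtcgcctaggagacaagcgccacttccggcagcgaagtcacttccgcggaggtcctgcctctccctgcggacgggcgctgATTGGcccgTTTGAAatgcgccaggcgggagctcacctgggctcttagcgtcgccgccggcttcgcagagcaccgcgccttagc
KIF4A: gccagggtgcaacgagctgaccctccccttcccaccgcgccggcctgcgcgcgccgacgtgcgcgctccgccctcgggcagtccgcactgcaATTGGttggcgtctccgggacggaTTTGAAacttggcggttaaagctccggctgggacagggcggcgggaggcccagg
KIF20A: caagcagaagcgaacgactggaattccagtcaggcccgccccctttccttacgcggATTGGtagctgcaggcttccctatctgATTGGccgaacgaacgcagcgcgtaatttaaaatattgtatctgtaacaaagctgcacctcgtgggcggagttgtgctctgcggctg
KIF18B: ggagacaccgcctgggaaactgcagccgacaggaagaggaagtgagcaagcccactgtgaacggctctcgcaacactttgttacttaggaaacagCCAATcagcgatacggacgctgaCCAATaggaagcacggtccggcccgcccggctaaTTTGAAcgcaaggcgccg
KIF5B: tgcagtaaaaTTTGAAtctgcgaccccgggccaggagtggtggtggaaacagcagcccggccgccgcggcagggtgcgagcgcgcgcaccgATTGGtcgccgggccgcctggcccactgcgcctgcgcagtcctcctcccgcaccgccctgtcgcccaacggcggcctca
KIF1C: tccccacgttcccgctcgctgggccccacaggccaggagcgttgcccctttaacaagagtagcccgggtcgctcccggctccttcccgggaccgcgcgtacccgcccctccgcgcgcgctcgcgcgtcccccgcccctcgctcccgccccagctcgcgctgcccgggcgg

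TTTGAA is the core of the cell cycle genes homology region (CHR), an element known from promoters of late cell cycle genes, and CCAAT is the box bound by NF-Y. Both were searched, on both strands, in the RefSeq window of 300 bases (250 before to 50 after the start), which 34 of the 42 members had. The letters of the pair did not overlap each other in these members. TTTGAA was present in 10 of 14 mitotic motors (71.4%), in 1 of 11 transport motors (9.09%, KIF5B) and in 0 of 9 other motors, against 18.2% of the 27305 genes with a window. CCAAT was present in 11 of 14 mitotic motors (78.6%), 4 of 11 transport motors (36.4%) and 3 of 9 other motors (33.3%), against 39.7% of all genes. Both were found in 9 mitotic motors (64.3%) and in 1 transport motor, against 7.26% of all genes. The mitotic motors without TTTGAA in this window were KIF20A, KIF2C, KIF22 and KIF2B. In KIF23 the match lay at -55 to -50 from the start with the CCAAT letters 4 bases upstream, and in KIF4A it lay at -34 to -29 with a gap of 19 bases. In the 9 mitotic motors with both, the gap between the nearest pair was 4 to 117 bases (median 20 bases). In KIF5B, TTTGAA lay at -140 to -135, upstream of its CCAAT match at -59 to -55. A match describes letters in a window and is neither a binding site nor a cause of the values below. No window was matched for KIF13B, KIF19, KIF21B, KIF26B, KIF27, KIF5A, KIFC2 and KIFC3.

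**Figure D2:**
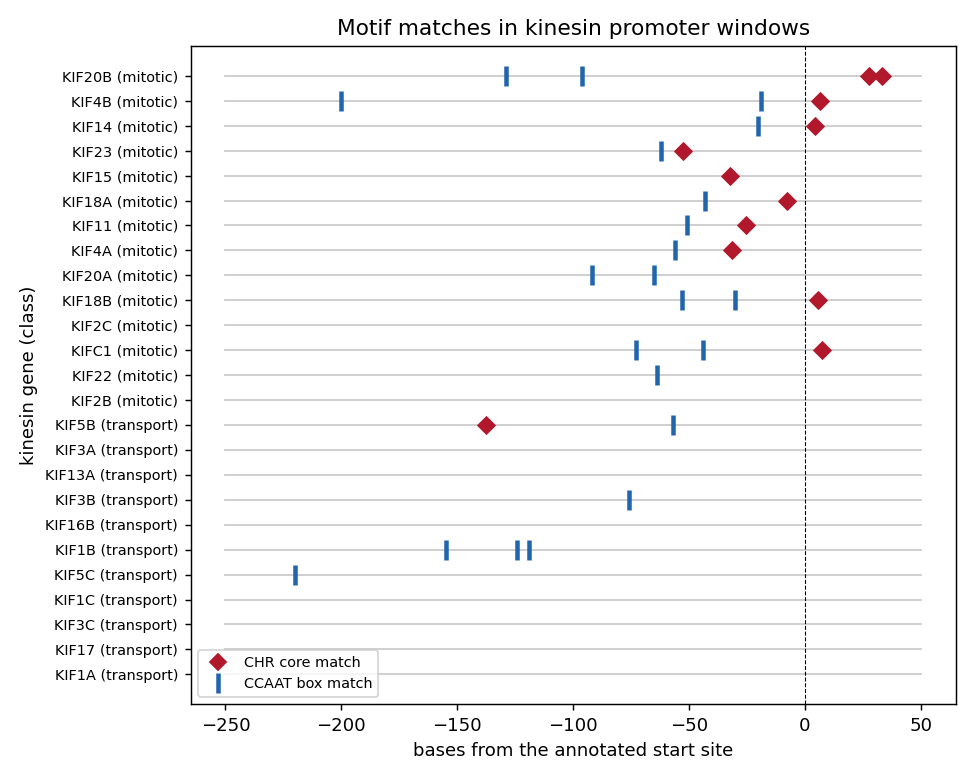
Positions of TTTGAA (diamonds) and CCAAT (bars) matches on either strand in the promoter windows of the mitotic and transport motors, in bases from the annotated start site. Matches to TTTGAA are seen in 10 of the 14 mitotic motors and, among transport motors, only in KIF5B of the 11 with a window.

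KIF23, KIF20A, KIF4A and KIF20B, which work at the central spindle and in cytokinesis, were called higher. KIF23 (ENSG00000137807, chr15:69414246-69448427), the motor subunit of centralspindlin, which bundles midzone microtubules, had 156, 160 and 177 CPM in controls 1, 2 and 3 and 228, 282 and 250 CPM with overexpression. The groups did not overlap, and the log2 fold change was 0.63 (SE 0.0818, adjusted p = 0.00162, n = 3 in each group). KIF20A (ENSG00000112984, chr5:138178719-138187723), which brings the Aurora B kinase complex to the midzone, had 243, 228 and 245 CPM in control and 329, 321 and 332 CPM with overexpression. Its libraries were tight within each group (SD 8.86 and 5.75 CPM) and well apart between groups, with a log2 fold change of 0.46 (SE 0.0535, adjusted p = 0.00111). KIF4A (ENSG00000090889, chrX:70290104-70420886), a chromokinesin that limits midzone microtubule length, rose from 110, 106 and 116 CPM to 148, 161 and 148 CPM. Its groups were also apart, with a log2 fold change of 0.46 (SE 0.0598, adjusted p = 0.00153). KIF20B (ENSG00000138182, chr10:89701590-89774939), which acts late in cytokinesis, had 3.49, 3.52 and 4.21 CPM in control and 4.68, 10.6 and 5.52 CPM with overexpression. All 3 P4HA3 libraries lay above the control libraries, but P4HA3 2 alone stood far above the rest. The log2 fold change of KIF20B was 0.88 (SE 0.271, adjusted p = 0.0442) and was 0.45 without P4HA3 2 (adjusted p = 0.0583). KIF20B was also not called without control 1 (adjusted p = 0.132), control 2 (0.170), control 3 (0.0604) or P4HA3 3 (0.0697). KIF14, which recruits citron kinase to the midbody, had a log2 fold change of 0.80 and was not called (adjusted p = 0.0642).

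Of the motors that set up the bipolar spindle, KIFC1 and KIF11 rose and KIF15 did not pass the test. KIFC1 (ENSG00000237649, chr6:33391823-33409896), a minus-end motor that clusters centrosomes and is known for carcinoma cells with extra ones, had 90.0, 93.7 and 88.6 CPM in control and 108, 109 and 110 CPM with overexpression. The rise was small and even, at 0.26 on the log2 scale (SE 0.0525, adjusted p = 0.0105), with no overlap between groups. KIF11 (ENSG00000138160, chr10:92574105-92655395), which pushes spindle poles apart, had 45.0, 49.5 and 56.9 CPM in control and 55.8, 89.8 and 66.2 CPM with overexpression. P4HA3 1 lay below control 3, so the groups of KIF11 overlapped, and the log2 fold change of 0.48 (SE 0.151) was only just called (adjusted p = 0.0464). Without P4HA3 2 it was 0.27 (adjusted p = 0.0636), and it was also not called without control 1 (0.158), control 2 (0.172) or P4HA3 3 (0.0985). KIFC1 was not called without control 1 (adjusted p = 0.0654) or P4HA3 3 (0.0553). KIF15, which can stand in for KIF11, had 11.2, 13.7 and 16.2 CPM in control and 16.0, 29.5 and 17.9 CPM with overexpression. Its groups overlapped, and the log2 fold change of 0.62 (SE 0.214) did not pass the test (adjusted p = 0.0621).

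Among motors acting on chromosomes and microtubule ends, KIF18B (ENSG00000186185, chr17:44924709-44947773), which trims astral microtubules, had 59.8, 60.4 and 60.1 CPM in control and 71.2, 78.4 and 74.6 CPM with overexpression. Control libraries were nearly identical (SD 0.305 CPM), every P4HA3 library lay above them, and the log2 fold change was 0.32 (SE 0.0588, adjusted p = 0.00763). KIF2C (ENSG00000142945, chr1:44739818-44767767), the centromeric depolymerase that corrects faulty attachments, rose from 219, 201 and 208 CPM to 273, 254 and 253 CPM. The groups were apart at a log2 fold change of 0.31 (SE 0.0584, adjusted p = 0.00782), and the call was lost without control 2 (adjusted p = 0.0546). KIF22, a chromokinesin that pushes chromosome arms away from the poles, had 151, 144 and 136 CPM in control cells and 154, 137 and 148 CPM with overexpression. The groups of KIF22 overlapped, and its log2 fold change of 0.03 (SE 0.0635, adjusted p = 0.779) was the smallest of the mitotic motors. KIF18A, which dampens chromosome oscillations, and KIF4B, an intronless copy of KIF4A with few counts per library, had log2 fold changes of 0.57 and 0.86 that did not pass the test (adjusted p = 0.153 and 0.0523). Because KIF4B closely matches KIF4A in sequence, the split of reads between them is uncertain. Exons of KIF23, KIF20A, KIFC1, KIF2C, KIF22 and KIF4A share 231, 206, 424, 175, 561 and 77 bases with genes on the opposite strand, which limits these values if the counting ignored strand.

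Summed over the class, mitotic motors had 1098, 1072 and 1119 CPM in controls 1, 2 and 3 and 1399, 1500 and 1421 CPM with overexpression (1096 ± 23.7 and 1440 ± 53.5 CPM, mean ± SD, n = 3 each). Every P4HA3 library was above every control library. The mean log2 level of the 13 motors relative to the control mean was 0.27, 0.74 and 0.42 in P4HA3 1, 2 and 3 and between -0.08 and 0.08 in the controls. P4HA3 2 was the highest library for 9 of the 13, and P4HA3 1 was the lowest of the P4HA3 libraries for 9. Among all 15130 genes tested, P4HA3 2 was the highest library for 4461 and P4HA3 1 the lowest of the P4HA3 libraries for 5915. Groups did not overlap for 8 of 13 mitotic motors, all higher, whereas 19.7% of all genes tested were apart and higher and 20.4% apart and lower. The 8 calls fell to 5 without control 1, control 2 or P4HA3 3, while the median stayed between 0.33 and 0.63 with any library left out. Among all genes tested, those called higher fell from 1416 to 229, 163 and 275 in those fits. CENPE, the kinetochore kinesin outside the naming rule, had 0.986, 1.13 and 1.72 CPM in control and 1.93, 7.07 and 2.92 CPM with overexpression, with P4HA3 2 again the highest.

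**Figure D3:**
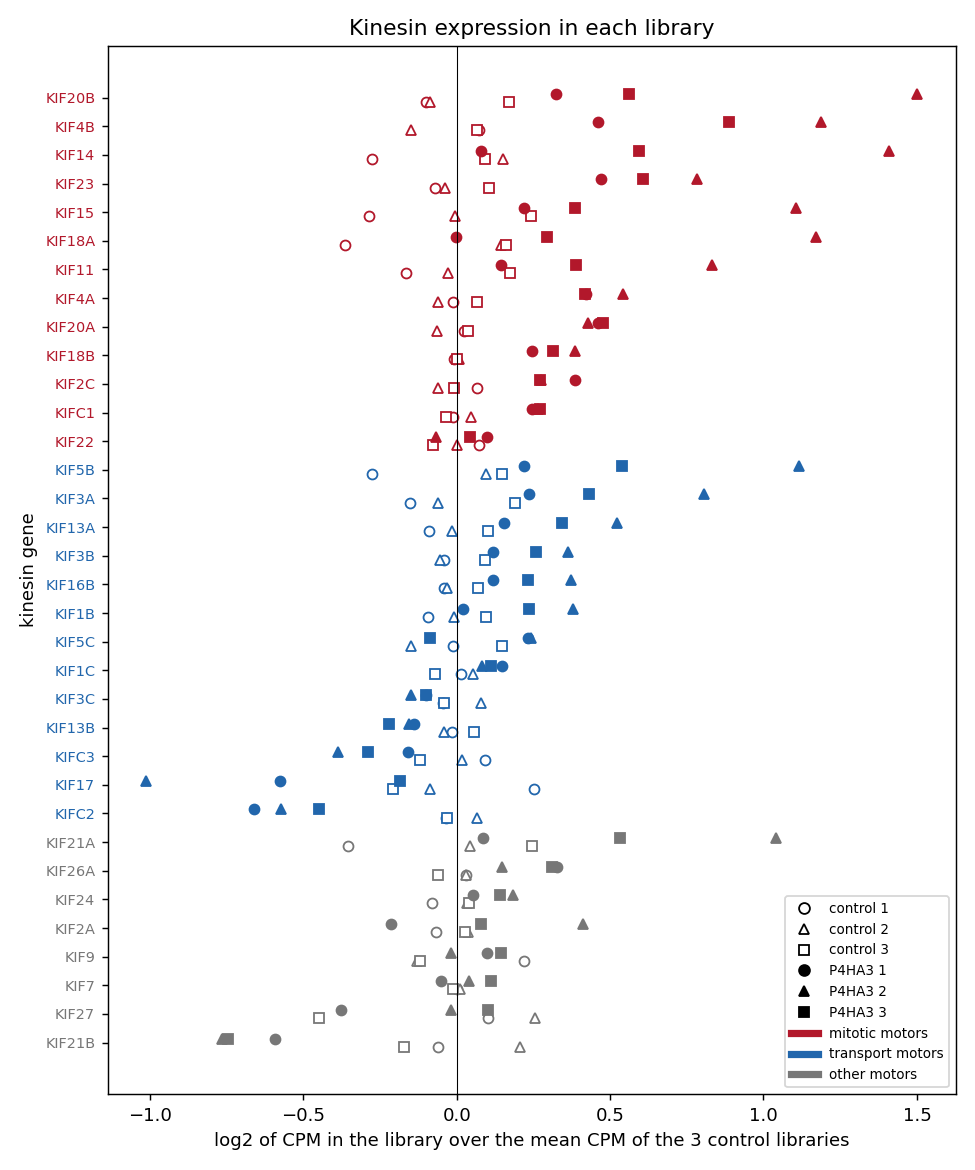
Level of the 34 tested kinesins in each of the 6 libraries, as log2 of CPM over the mean CPM of the 3 control libraries, with open symbols for control and filled symbols for P4HA3 overexpression. P4HA3 2 (filled triangles) is the highest library for 9 of 13 mitotic motors and 7 of 13 transport motors, against 4461 of all 15130 genes tested.

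Cargo-transport motors moved in both directions. KIF5B (ENSG00000170759, chr10:32009015-32056425), the ubiquitous heavy chain of conventional kinesin, had 49.4, 63.9 and 66.3 CPM in control and 69.7, 130 and 87.0 CPM with overexpression. Every P4HA3 library was above the controls, but P4HA3 1 by little, and the log2 fold change was 0.67 (SE 0.193, adjusted p = 0.0346). Without P4HA3 2 it was 0.39 (adjusted p = 0.0240). KIF3A (ENSG00000131437, chr5:132692628-132737638) and KIF3B pair as the heterotrimeric kinesin that serves cilia and membrane traffic. KIF3A had 8.34, 8.87 and 10.6 CPM in control and 10.9, 16.2 and 12.5 CPM with overexpression, a log2 fold change of 0.51 (SE 0.150, adjusted p = 0.0386). KIF3B (ENSG00000101350, chr20:32277651-32335011) was the more abundant partner, with 193, 192 and 212 CPM in control and 216, 256 and 238 CPM with overexpression, and rose by less, 0.25 on the log2 scale (SE 0.0716, adjusted p = 0.0344). Both partners were thus higher in every P4HA3 library, the lowest of which lay close to control 3. KIF13A (ENSG00000137177, chr6:17759183-17987635), which moves recycling endosomes, had 39.4, 41.5 and 45.1 CPM in control and 46.7, 60.4 and 53.3 CPM with overexpression (log2 fold change 0.35, SE 0.0946, adjusted p = 0.0294). In this class too, P4HA3 2 was the highest library for 7 of 13 motors, against 4461 of all 15130 genes tested. The 4 rises were not called without control 1 (adjusted p = 0.122 to 0.142), control 2 (0.124 to 0.155) or P4HA3 3 (0.0789 to 0.115), and KIF5B alone of them was called without P4HA3 2.

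Of the transport motors that fell, both were minus-end directed. KIFC3 (ENSG00000140859, chr16:57758217-57863053), which works at epithelial junctions and in apical transport, had 376, 357 and 324 CPM in control and 315, 269 and 288 CPM with overexpression. The groups were apart, though control 3 and P4HA3 1 were close, and the log2 fold change was -0.28 (SE 0.0749, adjusted p = 0.0292). KIFC3 was not called without control 1 (adjusted p = 0.134), control 2 (0.121), P4HA3 2 (0.0506) or P4HA3 3 (0.0998). KIFC2 (ENSG00000167702), known from neuronal transport, had 13.2, 14.1 and 13.2 CPM in control and 8.54, 9.07 and 9.89 CPM with overexpression. Its groups were well apart, and the log2 fold change of -0.56 (SE 0.0939, adjusted p = 0.00501) was called with any library left out (adjusted p at most 0.0426). Exons of KIFC2 and KIFC3 share 791 and 538 bases with genes on the opposite strand, and the strand setting of the counting was not given in the sources used here.

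The most abundant transport motors per transcript length among those not called were KIF1C and KIF1B. KIF1C, a fast motor of dense core vesicles and mRNA, had 511, 526 and 482 CPM in control and 561, 536 and 546 CPM with overexpression. The P4HA3 libraries lay just above the controls, and the log2 fold change of 0.11 (SE 0.0573) was not called (adjusted p = 0.165). KIF1B, a carrier of mitochondria and vesicle precursors, had 88.0, 93.2 and 100 CPM in control and 95.2, 122 and 110 CPM with overexpression. Its groups overlapped (log2 fold change 0.22, SE 0.0879, adjusted p = 0.0962), and 293 of its exon bases are shared with a gene on the same strand. The other 5 transport motors not called (KIF16B, KIF5C, KIF3C, KIF13B and KIF17) had log2 fold changes from -0.54 to 0.24 and adjusted p from 0.0939 to 0.512. Summed over the 13 tested, transport motors had 1345, 1365 and 1321 CPM in control and 1389, 1465 and 1411 CPM with overexpression (1344 ± 21.7 and 1422 ± 39.2 CPM). The sums were apart but by less than those of mitotic motors. Groups were apart and higher for 6 of 13 and apart and lower for 4 of 13, against 19.7% and 20.4% of all genes tested.

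Of the other motors, KIF26A rose and KIF21B fell. KIF26A (ENSG00000066735, chr14:104136454-104180894), which binds microtubules without ATPase activity, had 78.6, 78.5 and 73.6 CPM in control and 96.4, 85.2 and 95.3 CPM with overexpression. All P4HA3 libraries were above the controls, with a log2 fold change of 0.26 (SE 0.0649, adjusted p = 0.0206). KIF21B (ENSG00000116852, chr1:200969390-201023714), a motor that also pauses microtubule growth, was scarce, with 3.04, 3.66 and 2.82 CPM in control and 2.10, 1.87 and 1.89 CPM with overexpression. Every P4HA3 library was below the controls, with a log2 fold change of -0.69 (SE 0.156, adjusted p = 0.0152). Neither was called without control 1 (adjusted p = 0.0753 for KIF26A and 0.0541 for KIF21B), control 2 (0.0790 and 0.0774) or P4HA3 3 (0.0880 and 0.0658). KIF7, a regulator of Hedgehog signalling at the tip of the cilium, had 114, 115 and 113 CPM in control and 110, 117 and 123 CPM with overexpression. KIF2A, a depolymerase of spindle poles and neurites, had 33.3, 35.8 and 35.6 CPM in control and 30.1, 46.4 and 36.9 CPM with overexpression. The groups of KIF7 and KIF2A overlapped, and neither was called (log2 fold change 0.04, SE 0.0576, adjusted p = 0.673, and 0.11, SE 0.130, adjusted p = 0.539). Exons of KIF2A and KIF7 share 2446 and 589 bases with genes on the opposite strand. KIF2A also shares 331 exon bases with a gene on the same strand. KIF21A, KIF24, KIF9 and KIF27 had log2 fold changes from -0.07 to 0.60 and adjusted p from 0.0773 to 0.810.

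Levels of different motors were compared per kilobase of the canonical transcript. In control cells the highest was KIFC3, at 105 ± 7.80 CPM per kilobase (mean ± SD, n = 3), followed by KIF20A (77.1 ± 2.86), KIF2C (73.2 ± 3.22), KIF22 (69.0 ± 3.59) and KIF1C (63.9 ± 2.81). Neighbours in the order of these last 4 differed by less than the sum of their SDs. With overexpression the level of KIF20A was 106 ± 1.86 CPM per kilobase, that of KIF2C 90.8 ± 4.10 and that of KIFC3 86.6 ± 6.86, so the order of KIFC3 and KIF20A was the other way round. KIF3B (32.6 ± 1.85 CPM per kilobase in control) was well above its partner KIF3A (1.47 ± 0.186).

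Fold changes followed base composition across the whole table, and this touches the kinesins. Spearman's rho between log2 fold change and transcript GC content was -0.58 across 15107 genes, which are not independent replicates. The rho of each library's deviation from the mean ran from -0.52 (control 3) and -0.48 (P4HA3 2) to 0.45 (P4HA3 1), so the trend differed within as well as between groups. Transcripts of mitotic motors had a median GC content of 45.6% (34.3 to 58.4%) and those of transport motors 48.6% (37.4 to 67.2%), against 49.3% for all genes tested. After removal of the trend that every library had with GC content and length, 7 of 13 mitotic motors were called higher and 0 lower, and their median log2 fold change was 0.43, with all 13 still positive. KIF2A, placed here among other motors, was then negative, so with it in the mitotic class 13 were positive and 1 negative. The background with this correction was 9.23% higher and 9.3% lower. Transport motors then had 4 called higher and 1 lower, with a median of 0.11, and other motors 2 higher and 1 lower, with a median of 0.10.

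Single motors moved by more than the medians. Motors with GC-poor transcripts came down, KIF20B (34.3% GC) from 0.88 to 0.54 (adjusted p = 0.0595), KIF11 (39.2%) from 0.48 to 0.26 (0.0800), KIF3A (37.4%) from 0.51 to 0.24 (0.0777) and KIF5B (39.1%) from 0.67 to 0.43 (0.0433). GC-rich mitotic motors moved up, KIF18B (58.4%) from 0.32 to 0.46, KIFC1 (57.5%) from 0.26 to 0.42 and KIF22 (58.1%) from 0.03 to 0.20, and KIF22 was then called (adjusted p = 0.00426). KIF20A, near the middle at 48.2% GC, kept 0.44 (adjusted p = 2.97e-05), and KIF23 had 0.47 (0.000143). Of the motors that fell, KIFC3 (64.1%) went from -0.28 to -0.04 and was no longer called (adjusted p = 0.485), and KIFC2 (67.2%) went from -0.56 to -0.29 and was only just called (0.0472). KIF21B (59.8%) went from -0.69 to -0.58 (adjusted p = 0.0212). KIF26A (68.6%) went from 0.26 to 0.50 (adjusted p = 5.28e-05). KIF7 and KIF1C were called with the correction (log2 fold change 0.25 and 0.15, adjusted p = 0.00891 and 0.0387), and KIF2A changed sign to -0.18 without being called (adjusted p = 0.0816). The correction removes whatever follows GC content or length, and whether that part is technical was not tested.

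**Figure D4:**
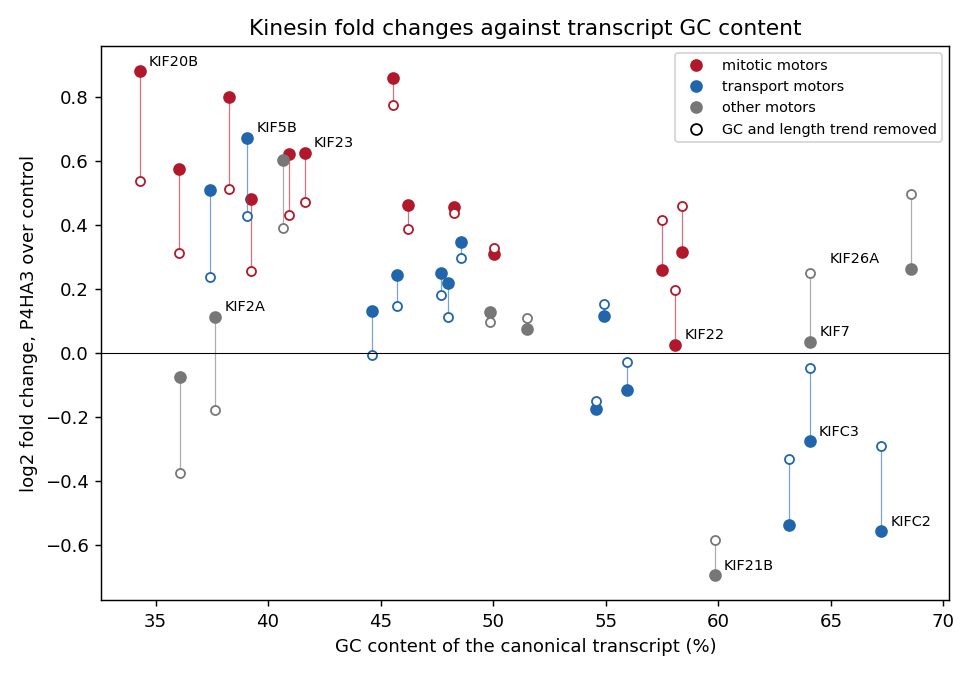
Log2 fold change of the 34 tested kinesins against the GC content of the canonical transcript, with filled points before and open points after removal of the GC and length trend of every library. All 13 mitotic motors (red) stay above 0 after the correction, whereas KIF2A crosses 0 and KIFC3 comes close to it.

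Genes for proteins that work with mitotic motors at the spindle and midzone also rose more often than they fell. Their list, too, was chosen with earlier results of these data known. Of 20 such genes, all tested, 12 rose and 0 fell (0 lower also at an unadjusted p under 0.05 and by DESeq2 and limma-voom), with a median log2 fold change of 0.37, against 9.36% called higher among all genes. With the GC and length trend removed, 14 were higher and the median was 0.32. TPX2, which targets kinesins and Aurora A to spindle microtubules, had 456, 440 and 451 CPM in control and 581, 620 and 590 CPM with overexpression, clearly apart (log2 fold change 0.41, adjusted p = 0.00179). ANLN, a scaffold of the cytokinetic ring, had the largest called rise (log2 fold change 0.67, adjusted p = 0.0104), and PLK1, a mitotic kinase that acts on midzone motors, the smallest (0.21, adjusted p = 0.0339; 0.37 with the GC and length trend removed). PRC1, the midzone bundler that recruits KIF4A, was listed at 0.704 to 1.35 CPM in control and 1.33 to 1.58 CPM with overexpression and was not called (adjusted p = 0.119). Of its 5523 exon bases, 3181 are shared with a gene on the same strand, so its count is uncertain. The 12 calls fell to 7 without control 1, 5 without control 2 and 6 without P4HA3 3. In those fits 229, 163 and 275 of all genes tested were called higher, down from 1416. ANLN was not called without control 2 (adjusted p = 0.0736), nor PLK1 without any one control library (0.0719 to 0.125) or P4HA3 3 (0.0750).

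The partners of transport motors did not move in one direction. Of 21 genes for kinesin light chains, the kinesin-associated protein and cargo adaptors, 20 were tested, 3 rose and 3 fell, and the median log2 fold change was -0.02 (0.07 with the GC and length trend removed, so its sign depended on that correction). Among all genes tested 9.36% were called higher and 11.4% lower, so neither share was far from the background. KLC1 and KLC2, light chains of conventional kinesin, had log2 fold changes of 0.09 and -0.02 and were not called (adjusted p = 0.397 and 0.891). KIFAP3, which joins KIF3A and KIF3B to cargo, had 0.15 (adjusted p = 0.276). TRAK2, an adaptor between KIF5 motors and mitochondria, rose by 0.37 on the log2 scale (adjusted p = 0.0117), and MAPK8IP2, a scaffold that binds light chains, had -0.55 (0.00630). TRAK2 was not called without control 1 (adjusted p = 0.0648), control 2 (0.0741) or P4HA3 3 (0.0563). Of 28 genes of cytoplasmic dynein and dynactin with their adaptors, the minus-end counterpart of kinesins, 5 rose and 2 fell, with a median of 0.17 (0.06 with the trend removed), against the same background. DYNC1H1, the dynein heavy chain, was not called (0.20, adjusted p = 0.107). DYNLT3, a dynein light chain, rose by 0.49 (adjusted p = 0.0229) and HOOK2, a dynein adaptor, had -0.38 (0.0113). The 3 rises among kinesin adaptors and the 5 among dynein genes fell to 0 without control 1 or control 2, and to 0 and 1 without P4HA3 3, and the falls from 3 to 1 and from 2 to 0 in each of those fits. Without P4HA3 1 the rises were 7 and 10. Among all genes tested, rises also fell, from 1416 to 229, 163 and 275 without control 1, control 2 and P4HA3 3. Falls there went from 1731 to 552, 371 and 629, and without P4HA3 1 the rises were 2814. DYNLT3 and HOOK2 were not called without control 1, control 2 or P4HA3 3 (adjusted p = 0.0516 to 0.113). With the GC and length trend removed, HOOK2 was no longer called (-0.18, adjusted p = 0.127), the log2 fold changes of DYNLT3 and TRAK2 came down to 0.22 and 0.18, and that of MAPK8IP2 was -0.36. KLC2 and DYNC1H1 were then called higher (0.22 and 0.14, adjusted p = 0.00952 and 0.0325), and KIFAP3 was at -0.01.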

How the data were processed

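RNA-seq was analysed in 6 libraries, 3 of SiHa PR control cells and 3 of SiHa PR cells overexpressing P4HA3, grouped by their labels. The authors deposited raw counts per Ensembl gene, without normalization. The study's methods describe poly-A selected, strand-specific paired-end libraries, alignment with STAR to GRCh38, counting with HTSeq and Ensembl annotation, whereas the submitters' processing notes name HISAT2. Tool versions and the strand setting of the counting are not given in the sources used here, so overlapping genes and near-identical copies are uncertain.

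The deposited counts of all genes were fitted in R 4.3.3 with edgeR 4.0.16 (filterByExpr with a minimum count of 10, TMM, glmQLFit and glmQLFTest, two-sided, Benjamini-Hochberg adjustment over 15130 genes) and called at an adjusted p under 0.05. The fit was tested on simulated data with the same dispersion for every gene and no GC trend between libraries. The deposited libraries did have such a trend. Symbols, positions, GC content and length came from GENCODE release 44 on GRCh38. Alternatives were DESeq2 1.42.0, limma-voom (limma 3.58.1), other normalizations and filters, single libraries left out, a stricter threshold, a block on the replicate number and, with mgcv 1.9.3 and also together with the block, an offset for the trend of every library with transcript GC content and length. Every called member is named with all its values, then the 2 members not called with the highest level per kilobase in each class. Of each partner list, the called genes with the largest and smallest log2 fold change and the named subunits are given. CENPE was added as an outside comparison. Members, classes and lists were chosen with earlier results of these data known.

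With 3 libraries a group and totals of 21773488 to 24939948 counts, differences of scarce motors are limited by counting error.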

Additional observations from a re-analysis of the deposited data

How the results depend on the processing

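All 16 calls kept their direction in every alternative fit, and 5 of them (KIF23, KIF4A, KIF20A, KIF18B and KIFC2) stayed past an adjusted p of 0.05 in each. The medians of the 3 classes moved by less than the spread between replicates. With single libraries left out, genes called higher among all tested ran from 163 (without control 2) to 2814 (without P4HA3 1). Those called lower ran from 371 to 2716 in the same 2 fits. Mitotic motors called higher ran from 5 to 12, and transport motors called higher from 0 to 6 and lower from 1 to 2. Other motors called higher ran from 0 to 2 and lower from 0 to 1. At an adjusted p under 0.01 these counts of motors were, in the same order, 5, 0, 1, 0 and 0. Transport motors called lower were 1 with the GC and length correction, alone or with the replicate block. Other motors called higher were 2 with DESeq2, without a filter on low counts, with the replicate block or with the GC and length correction, and 3 with the correction and the block, where 2 were called lower. KIF2A, not called otherwise, was called lower at -0.18 with the correction and the block. DESeq2 lost KIF5B, limma-voom lost KIF20B and KIF11, and scaling by library size alone lost KIF11. With KIF2A counted as mitotic, 8 were still called higher and all 14 tested were positive. With the GC and length correction that class had 7 called higher, 13 positive and 1 negative. KIF4B had no value when 10 counts were required in every library, and DESeq2 gave KIF4B and KIF17 no adjusted p.

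Replicate numbers did not pair the samples (correlations of same-numbered deviations 0.25, -0.05 and 0.03), and of the control libraries only the first correlated best with its own number. The replicate block gave 12 mitotic motors higher against 8, and 2138 genes higher and 2175 lower in the whole table against 1416 and 1731. Without the filter 2384 were higher and 2101 lower. The causes were not tested.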
